A study of Mus musculus with 50 samples.

Results

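The retinoid dehydrogenases described here are 8 genes, Rdh10, Rdh5, Rdh11, Dhrs9, Dhrs3, Aldh1a1, Aldh1a2 and Aldh1a3, taken by symbol from a table of 56600 gene entries measured in mouse lymph nodes. All 8 symbols were found. Of them, 7 passed the filter on low values that left 18387 genes for testing, and Dhrs9 did not. Dhrs9 therefore appears with its values alone.

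Retinoic acid is made from vitamin A in successive oxidations. Retinol dehydrogenases oxidise retinol to retinaldehyde, retinaldehyde reductases run that step backwards, and retinaldehyde dehydrogenases of the Aldh1a family then make retinoic acid, which cannot be turned back. In the gut and the nodes that drain it, dendritic cells and stromal cells with Aldh1a activity are known as sources of the retinoic acid that gives lymphocytes their gut-homing receptors.

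The series compared whole lymph nodes of C57BL/6J mice by poly(A) RNA sequencing. Groups were the duodenal, jejunal, ileal, colonic and inguinal nodes on a vitamin A deficient diet and the same 5 nodes on a matched diet that held vitamin A at 20 IU/g, with 5 libraries in each of the 10 groups. The first 4 nodes drain the gut and the inguinal node drains skin. Dams went on their diet 3 weeks before breeding began, and offspring of later litters were taken at postnatal day 56. All 25 deficient libraries came from females, whereas the sufficient libraries were 10 female and 15 male. The labels do not state that libraries of a group came from separate mice, and p-values therefore rest on the spread among libraries only. Since each litter had 1 diet, diet cannot be told apart from dam and litter.

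Totals ran from 5335369 to 8904722 estimated counts per library, with a median of 7640371. Lymphocyte genes matched the tissue label: the 5 B-cell markers summed to between 1399.3 and 3003.9 counts per 1000000 (CPM, TMM-normalised) and the 5 T-cell markers to between 573.7 and 1026.8 CPM, and none of them was at 0 in any library. In 10 deficient libraries the transcript Gm19220 took 1.03% to 1.7% of counts, against 5.37% to 9.83% in all other libraries. These were ileal 2, all 5 nodes numbered 3, colonic 2 and 5, and inguinal 2 and 5. In 3 duodenal libraries, deficient 4 and sufficient 2 and 5, the pancreas acinar markers took 1.08% to 7.95% of counts, against at most 0.919% elsewhere. In these bulk samples, fewer cells of a type and less RNA per cell cannot be told apart.

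Promoter windows from RefSeq on GRCm38.p6 were matched for 6 of the 8 genes, all but Aldh1a3 and Rdh10. The windows of the 3 genes whose level passed the test of diet in at least 1 node are shown, each 300 bases on the plus strand, 5′ to 3′. They lie at chr9:71215539-71215838 (Aldh1a2), chr4:144892577-144892876 (the first of 3 Dhrs3 starts) and chr19:20601718-20602017 (the second of 2 Aldh1a1 starts). Capitals mark a match to a receptor half-site.
Aldh1a2: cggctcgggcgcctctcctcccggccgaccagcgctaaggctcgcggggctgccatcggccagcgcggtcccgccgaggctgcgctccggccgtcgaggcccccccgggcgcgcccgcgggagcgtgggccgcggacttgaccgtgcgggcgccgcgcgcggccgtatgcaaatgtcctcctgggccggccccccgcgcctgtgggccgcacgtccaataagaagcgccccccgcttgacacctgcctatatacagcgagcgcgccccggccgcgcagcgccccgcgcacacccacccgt
Dhrs3: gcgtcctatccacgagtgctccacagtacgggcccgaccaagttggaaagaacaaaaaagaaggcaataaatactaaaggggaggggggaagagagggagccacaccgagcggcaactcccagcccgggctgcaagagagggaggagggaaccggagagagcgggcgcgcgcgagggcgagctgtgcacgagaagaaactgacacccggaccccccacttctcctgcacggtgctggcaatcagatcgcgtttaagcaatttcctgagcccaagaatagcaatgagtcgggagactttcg
Aldh1a1: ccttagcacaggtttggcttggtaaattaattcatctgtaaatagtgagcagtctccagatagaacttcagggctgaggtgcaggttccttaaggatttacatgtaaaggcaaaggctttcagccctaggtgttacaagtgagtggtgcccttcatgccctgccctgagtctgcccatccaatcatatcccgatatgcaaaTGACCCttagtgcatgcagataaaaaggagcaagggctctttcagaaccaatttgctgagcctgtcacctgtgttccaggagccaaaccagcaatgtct
The search covered both strands for the half-sites that retinoic acid receptors bind as repeats, which were AGGTCA (in 16.3% of all windows), AGTTCA (in 14.0%), GGTTCA (in 10.4%) and GGGTCA (in 13.7%). Aldh1a2 had no match, nor did any of the 3 Dhrs3 windows, and the Aldh1a1 window shown had 1, GGGTCA on the minus strand, whose first base lies at position -49 from the start. The window of the first Aldh1a1 start, at chr19:20492333-20492632, had no match; the second is shown because it holds the match. Of all 32851 windows, 43.7% held at least 1 such match. The windows differed in base composition: G and C made up 78.0% of the Aldh1a2 window, 58.7% of the Dhrs3 window and 47.0% of the Aldh1a1 window, against a median of 52.7% over all windows. CpG dinucleotides numbered 50 for Aldh1a2, 21 for Dhrs3 and 1 for Aldh1a1, against a median of 7.0. These values are of the windows shown. The other Dhrs3 windows had 45.0% and 45.3% G and C, with 10 and 9 CpG. The other Aldh1a1 window had 43.3%, with 3 CpG. A match is a run of letters and not a measured site, and a window without one says nothing of binding elsewhere.

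Of Rdh10, Rdh5 and Rdh11, edgeR called none by diet in any node, and neither did limma-voom or DESeq2, with 2 values of Rdh11 and 1 of Rdh5 at an unadjusted p under 0.05 in edgeR. Rdh10 is the main retinol dehydrogenase of the mouse embryo. On GRCm38 it lies on chromosome 1 from 16105774 to 16133734. Its group means ran from 16.1 to 21.1 CPM on the deficient diet and from 17.2 to 20.7 CPM on the sufficient diet. The ranges overlapped in every node, and the log2 fold changes, deficient over sufficient, lay between -0.22 ± 0.13 (SE) in the colonic node and -0.02 ± 0.12 in the inguinal node. None passed edgeR's quasi-likelihood test with Benjamini-Hochberg adjustment, the smallest adjusted p being 0.42 in the duodenal node. The 95% interval of the duodenal change ran from -0.42 to 0.08.

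Rdh5, the dehydrogenase of cis-retinol in the retinal pigment epithelium, lies on chromosome 10 from 128913593 to 128922888 on the minus strand. It averaged 6.52 to 8.36 CPM on the deficient diet and 6.52 to 7.69 CPM on the sufficient diet. Its largest change was in the colonic node, 0.49 ± 0.21, with an adjusted p of 0.271. Rdh5 shares exons with Bloc1s1 on the same strand over 25.6% of its exon bases, so counts of these neighbours may have been split between them.

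Rdh11, a dehydrogenase that mainly reduces retinaldehyde, lies on chromosome 12 from 79174337 to 79192293 on the minus strand. Its group means were 17.5 to 20.0 CPM on the deficient diet and 18.4 to 21.9 CPM on the sufficient diet. The log2 fold change was -0.32 ± 0.14 in the duodenal node (adjusted p = 0.128) and -0.35 ± 0.14 in the jejunal node (adjusted p = 0.149), and in both the ranges overlapped. Without the deficient libraries numbered 5 both values passed the threshold.

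Dhrs9, a short-chain dehydrogenase that can oxidise retinol, was close to absent. It lies on chromosome 2 from 69380445 to 69404533. The table lists it at 0 in 10 of the 50 libraries, and its highest estimated count was 5.97. Its mean over all libraries was 0.233 CPM, and since it did not pass the filter, differences between groups were not tested.

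**Figure D1:**
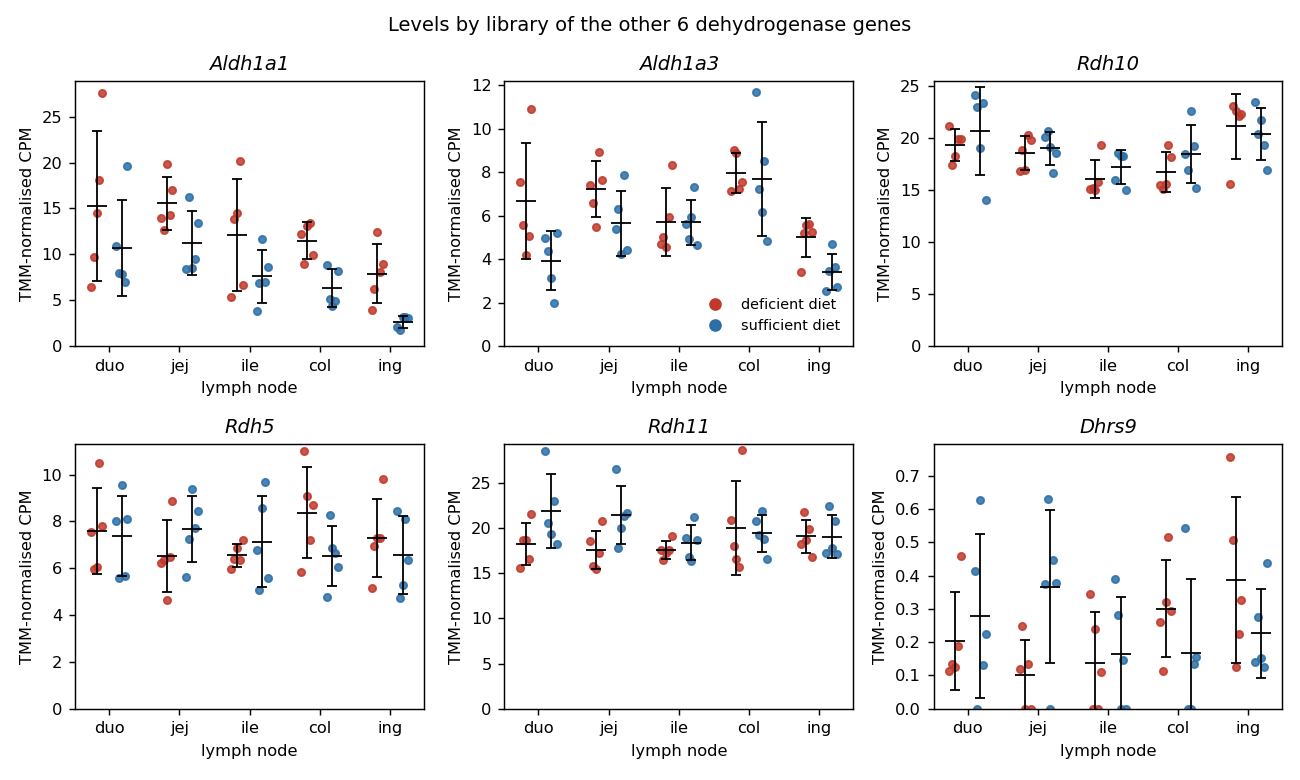
TMM-normalised CPM of 6 dehydrogenase genes by node (duo, duodenal; jej, jejunal; ile, ileal; col, colonic; ing, inguinal), 1 point per library, deficient diet in red on the left and sufficient diet in blue on the right. Bars are the mean ± SD of 5 libraries. The deficient and sufficient ranges of Aldh1a1 do not overlap in the colonic and inguinal nodes, while Rdh10, Rdh5 and Rdh11 overlap in every node and Dhrs9 stays under 1 CPM.

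Dhrs3, a retinaldehyde reductase that works together with Rdh10 and is a known target of retinoic acid, was lower on the deficient diet in the nodes of the small intestine. It lies on chromosome 4 from 144892827 to 144928209. In the duodenal node it had 20.8, 22.4, 17.5, 30.1 and 27.0 CPM on the deficient diet, against 37.2, 37.7, 37.3, 42.0 and 54.9 CPM on the sufficient diet. The groups did not overlap, and the highest value, 54.9 CPM, was in the sufficient library with the highest pancreas share. Dhrs3 fell by 0.64 ± 0.17 on the log2 scale (adjusted p = 0.0126).

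In the jejunal node Dhrs3 had 35.0, 31.1, 35.1, 31.9 and 25.7 CPM on the deficient diet, against 48.1, 43.2, 53.0, 62.6 and 70.8 CPM on the sufficient diet. In the ileal node it had 27.6, 36.8, 28.0, 45.6 and 28.0 CPM on the deficient diet, against 51.4, 58.9, 70.3, 62.1 and 59.3 CPM on the sufficient diet. Every deficient library lay below every sufficient one in both nodes. The log2 fold change was -0.61 ± 0.17 in the jejunal node (adjusted p = 0.0304) and -0.68 ± 0.17 in the ileal node (adjusted p = 0.00995).

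The colonic node gave a change of like size that missed the threshold. Dhrs3 had 20.7, 19.2, 17.1, 26.9 and 12.7 CPM in deficient colonic nodes, against 27.5, 35.3, 30.3, 30.7 and 43.3 CPM in sufficient ones. These ranges did not overlap either, and the log2 fold change was -0.60 ± 0.18 (adjusted p = 0.0571). It was -0.30 (adjusted p = 0.687) without the low-Gm19220 libraries, and -0.79 (adjusted p = 0.00762) when sex was left out of the model. DESeq2 called it, at an adjusted p of 0.0291, and edgeR did so without the deficient libraries numbered 4 (-0.74, adjusted p = 0.00973).

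In the inguinal node Dhrs3 had 12.8, 18.7, 18.9, 19.1 and 13.5 CPM on the deficient diet, against 14.8, 14.8, 26.4, 16.5 and 20.9 CPM on the sufficient diet. The groups overlapped widely and the log2 fold change was 0.04 ± 0.18 (adjusted p = 0.968), with a 95% interval of -0.33 to 0.40. The diet effect in the gut-draining nodes minus that in the inguinal node was -0.66 ± 0.19, which missed the threshold (adjusted p = 0.0718) and passed it with DESeq2 (adjusted p = 0.0317).

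Sex bears on these values, because no male ate the deficient diet. Dhrs3 was the 1 tested member past the threshold in the model's sex term. It was higher in males by 0.31 ± 0.11 on the log2 scale (adjusted p = 0.0249). That term called 13.6% of all genes higher in males, among them 5 of 5 pancreas acinar markers. In every sufficient node libraries 1 and 2 were female and 3 to 5 male. Sex thus cannot be told apart from replicate number. Deviations from group means correlated between same-numbered sufficient libraries (median r = 0.305, against -0.069 for other numbers). The p-value of the sex term takes these libraries as independent. In sufficient ileal nodes Dhrs3 averaged 63.9 CPM in 3 males and 55.2 CPM in 2 females. With females alone the diet differences were -0.68 in the duodenal, -0.53 in the jejunal and -0.73 in the ileal node, and none passed the threshold with 2 sufficient libraries per node (adjusted p = 0.0741, 0.248 and 0.0734). The duodenal call was also lost without the libraries of high pancreas share (-0.63, adjusted p = 0.0551). Leaving out the sufficient libraries numbered 2 ended the duodenal and ileal calls, and 6 of the 10 sets of same-numbered libraries each ended the jejunal call when left out.

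Aldh1a2, the retinaldehyde dehydrogenase that makes most retinoic acid in the mouse embryo and marks the retinoic acid producing cells of gut-draining nodes, showed the largest diet difference of the 7 tested members in each gut-draining node. It lies on chromosome 9 from 71215789 to 71296243. In the duodenal node it had 1.8, 2.12, 0.865, 2.82 and 2.3 CPM on the deficient diet, against 40.5, 55.1, 75.4, 36.4 and 67.7 CPM on the sufficient diet. The highest deficient library was far below the lowest sufficient one. The log2 fold change was -4.66 ± 0.34 (adjusted p = 1.3e-13), and the ratio of the means was 0.036.

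In the jejunal node Aldh1a2 had 3.29, 4.23, 3.57, 2.71 and 1.13 CPM on the deficient diet, against 42.8, 48.1, 50.3, 50.5 and 55.2 CPM on the sufficient diet. In the ileal node it had 1.49, 4.8, 1.08, 5.51 and 2.08 CPM on the deficient diet, against 33.3, 37.5, 36.3, 29.0 and 48.6 CPM on the sufficient diet. Neither node had any overlap. The log2 fold changes were -3.89 ± 0.32 (adjusted p = 9.93e-12) in the jejunal node and -3.50 ± 0.32 (adjusted p = 1.81e-10) in the ileal node.

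In the colonic node, where the sufficient level was lower, Aldh1a2 had 3.64, 4.18, 1.07, 1.16 and 1.62 CPM on the deficient diet, against 13.3, 17.6, 16.3, 20.2 and 18.9 CPM on the sufficient diet. The groups stayed apart and the log2 fold change was -2.72 ± 0.34 (adjusted p = 6.03e-07). In the inguinal node it had 1.01, 2.53, 1.51, 1.34 and 0.764 CPM on the deficient diet, against 2.4, 1.94, 2.87, 3.0 and 2.62 CPM on the sufficient diet. These groups overlapped through the deficient library at 2.53 CPM, and the difference of -0.70 ± 0.41 was not past the threshold (adjusted p = 0.529).

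On the deficient diet Aldh1a2 was low in all 5 nodes. Group means ran from 1.43 CPM (inguinal) to 2.99 CPM (jejunal and ileal), a ratio of 2.09, and when the nodes were ordered by mean each overlapped its neighbour. On the sufficient diet the order was duodenal (55.0 ± 16.8 CPM, SD, n = 5), jejunal (49.4 ± 4.49), ileal (36.9 ± 7.30), colonic (17.3 ± 2.65) and inguinal (2.56 ± 0.419), with a ratio of 21.5 between the highest and lowest mean. There the first 3 nodes overlapped their neighbours, while ileal, colonic and inguinal libraries were separate from one another. The 4 calls in gut-draining nodes held under all 22 alternative analyses run for each, females alone and the set without the low-Gm19220 libraries included.

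**Figure D2:**
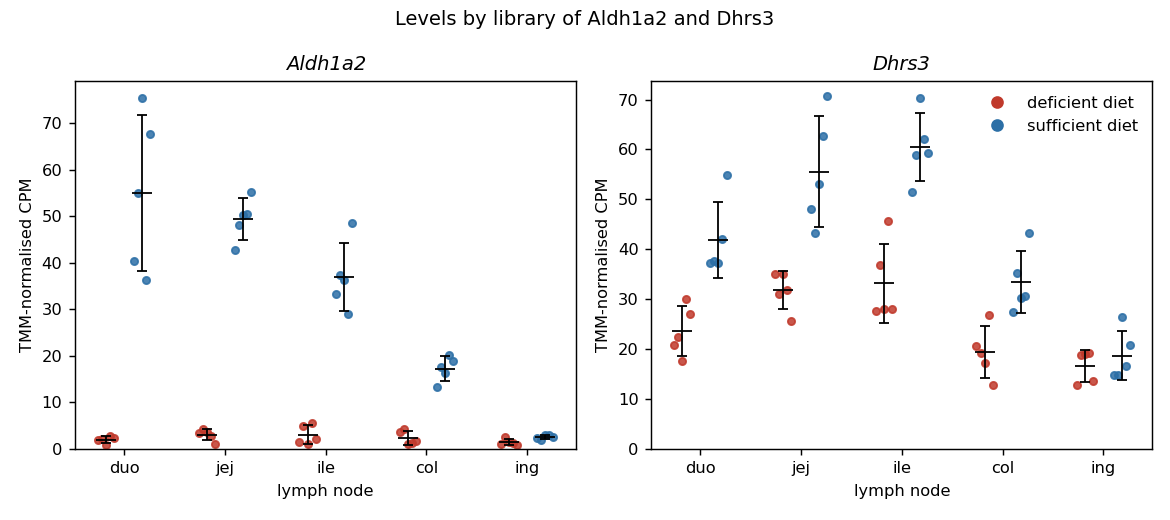
TMM-normalised CPM of Aldh1a2 (left) and Dhrs3 (right) by node (duo, duodenal; jej, jejunal; ile, ileal; col, colonic; ing, inguinal), 1 point per library, deficient diet in red on the left and sufficient diet in blue on the right. Bars are the mean ± SD of 5 libraries. Deficient Aldh1a2 stays between 0.764 and 5.51 CPM in all 5 nodes, against 13.3 to 75.4 CPM in sufficient gut-draining nodes.

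Aldh1a1, a retinaldehyde dehydrogenase with wide tissue expression, had a higher mean on the deficient diet in every node, and passed the threshold in the inguinal node. It lies on chromosome 19 from 20492715 to 20643465. In the inguinal node it had 3.9, 6.2, 12.4, 8.06 and 8.95 CPM on the deficient diet, against 2.12, 1.8, 3.17, 3.12 and 3.06 CPM on the sufficient diet. The groups did not overlap, and Aldh1a1 rose by 1.69 ± 0.40 on the log2 scale (adjusted p = 0.0232). The deficient libraries with low Gm19220 had 6.2, 12.4 and 8.95 CPM, and without them the change was 1.29 (adjusted p = 0.478). The call was lost in 10 of 22 alternatives, limma-voom (adjusted p = 0.146) and females alone (2.00, adjusted p = 0.134) among them, and also without the deficient libraries numbered 3 (1.46, adjusted p = 0.118) or the sufficient ones numbered 1, 2 or 5. The log2 fold change stayed between 1.22 and 2.00 in all 22.

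In the colonic node Aldh1a1 had 12.2, 8.92, 13.1, 13.4 and 9.89 CPM on the deficient diet, against 8.84, 5.17, 4.38, 4.92 and 8.23 CPM on the sufficient diet. The lowest deficient library, at 8.92 CPM, lay just above the highest sufficient one, at 8.84 CPM, and the change of 0.97 ± 0.36 missed the threshold (adjusted p = 0.171). In the other nodes the libraries overlapped, with 6.42 to 27.6 CPM in deficient and 7.0 to 19.6 CPM in sufficient duodenal nodes, 12.6 to 19.9 and 8.39 to 16.3 CPM in jejunal nodes, and 5.39 to 20.2 and 3.78 to 11.7 CPM in ileal nodes. The log2 fold changes there were 0.65 ± 0.36, 0.58 ± 0.35 and 0.80 ± 0.37, with adjusted p-values of 0.256, 0.408 and 0.229. Of the stretches of 31 bases in its longest coding transcript, 12.0% also occur in the related gene Aldh1a7, so reads of this pair may have been divided between them. Aldh1a7 itself averaged 4.88 CPM, with a range of 0.113 to 14.7 CPM over the libraries.

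Aldh1a3, the third retinaldehyde dehydrogenase, lies on chromosome 7 from 66390890 to 66427517 on the minus strand. It had 7.55, 5.57, 4.2, 5.08 and 10.9 CPM in deficient duodenal nodes, against 4.98, 4.36, 3.13, 1.98 and 5.18 CPM in sufficient ones. The groups overlapped, and the change of 0.71 ± 0.26 missed the threshold (adjusted p = 0.0757). It passed without the sex term (0.78, adjusted p = 0.0364). In the other 4 nodes the log2 fold change lay between -0.08 ± 0.26 (ileal) and 0.46 ± 0.27 (inguinal), with the smallest adjusted p at 0.521.

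**Figure D3:**
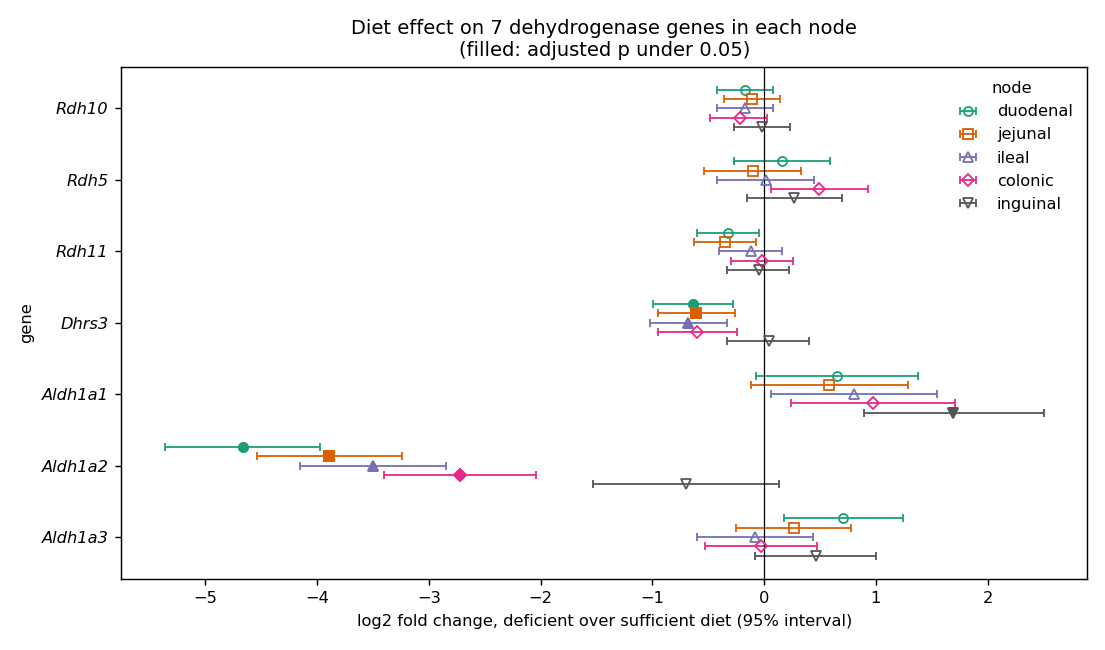
Log2 fold change, deficient over sufficient diet, of the 7 tested genes in each node, from edgeR's quasi-likelihood fit with approximate 95% intervals; filled symbols passed an adjusted p of 0.05. Aldh1a2 lies between -4.66 and -2.72 in the gut-draining nodes, Dhrs3 between -0.68 and -0.60, and Aldh1a1 reaches 1.69 in the inguinal node.

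Counted over the 7 tested members, the diet comparison called 2 lower in the duodenal node (3.95% of all tested genes were called lower there), 2 lower in the jejunal node (1.80%), 2 lower in the ileal node (2.96%), 1 lower in the colonic node (0.946%) and 1 higher in the inguinal node (0.538% called higher). The calls were Aldh1a2 and Dhrs3 in the small intestinal nodes, Aldh1a2 in the colonic node and Aldh1a1 in the inguinal node. The median log2 fold change of the 7 was -0.17, -0.11, -0.12, -0.03 and 0.04 in the 5 nodes taken in that order, against medians between 0 and 0.02 over all tested genes.

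Markers of other cells moved with diet in the same libraries. The 5 mast-cell markers summed to 271.1 CPM (129.8 to 379.0) in deficient duodenal nodes, against 1.94 CPM (1.41 to 2.7) in sufficient ones, and all 5 were called higher there. Of these, Tpsb2 and Fcer1a were each at 0 in 14 of the 50 libraries. The 5 fibroblast markers summed to 205.6 to 330.3 CPM in deficient and 203.4 to 279.3 CPM in sufficient duodenal nodes, with 0 of 5 called by edgeR in any node's diet comparison. The 5 reticular stroma markers had a lower mean sum on the deficient diet in each gut-draining node. In the duodenal node it was 1800.1 CPM (1515.2 to 2129.5), against 2173.7 CPM (1772.7 to 2772.7) in sufficient libraries. In the inguinal node it was 1548.2 CPM deficient and 1485.0 CPM sufficient. Of these 5 markers, 1 was called lower in the ileal node and 0 in any other node. The 5 mesothelial markers summed to 2.1 to 12.2 CPM in deficient and 2.9 to 10.6 CPM in sufficient duodenal nodes. The migratory dendritic cell markers summed to 1757.7 CPM (1320.3 to 2052.1) in deficient duodenal nodes, against 1262.2 CPM (1020.6 to 1524.3) in sufficient ones, with 2 of 5 called higher. In the other direction, 2 of these 5 were called lower in the ileal node and 3 of 5 in the colonic node, where they summed to 797.4 CPM (760.8 to 879.4) in deficient and 957.6 CPM (817.4 to 1071.9) in sufficient libraries. Aldh1a2 was called lower in both of these nodes. It was also called lower, with larger changes, in the duodenal (-4.66) and jejunal (-3.89) nodes. There 2 and 1 of the 5 migratory dendritic cell markers were called higher and 0 lower. The 5 CD103 dendritic cell markers, none of them at 0 in any library, summed to 237.3 CPM (225.0 to 247.4) in deficient and 266.8 CPM (239.9 to 288.9) in sufficient duodenal nodes, with 1 called higher and 2 lower. The jejunal and colonic nodes also had 1 called higher and 2 lower. The ileal node had 1 higher and 1 lower, and the inguinal node 1 higher and 0 lower. The 5 liver markers summed to 4.86 CPM (1.15 to 16.2) in deficient and 78.0 CPM (15.8 to 306.9) in sufficient duodenal nodes, with 4 of 5 called lower. Lymphatic endothelial markers were called lower in the nodes where Dhrs3 was, 2 of 5 in the duodenal, 1 of 5 in the jejunal and 3 of 5 in the ileal node, where they summed to 604.7 CPM (515.0 to 729.9) in deficient and 754.1 CPM (597.9 to 869.1) in sufficient libraries. Of the 5 B-cell markers, 4 were called higher in the duodenal node and 1 in the jejunal node. The part of these cells in the levels of Aldh1a2, Dhrs3 and Aldh1a1 was not tested.

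Levels of the 3 Aldh1a genes were next compared with each other per length, as CPM per kilobase of the longest coding transcript. In deficient duodenal nodes Aldh1a1 made up 67.2% ± 12.7, Aldh1a2 10.3% ± 4.31 and Aldh1a3 22.5% ± 9.69 of their summed level (SD, n = 5). In sufficient duodenal nodes Aldh1a1 made up 15.2% ± 5.06, Aldh1a2 80.9% ± 5.96 and Aldh1a3 3.91% ± 1.40. Aldh1a1 was thus the leading gene on the deficient diet and Aldh1a2 on the sufficient diet, and the Aldh1a2 share ran from 4.94% to 14.1% in deficient libraries, against 74.6% to 88.7% in sufficient ones.

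The Aldh1a2 share averaged 13.3%, 15.5% and 12.5% in deficient jejunal, ileal and colonic nodes, against 77.5%, 76.9% and 61.0% in sufficient ones. In the inguinal node it averaged 12.2% ± 5.91 on the deficient diet and 35.1% ± 2.95 on the sufficient diet, where the 3 genes had nearly equal parts. The summed per-length level ran from 5.71 to 15.9 in deficient and from 19.6 to 39.7 in sufficient duodenal nodes, without overlap, and averaged 5.43 ± 1.58 in deficient and 3.25 ± 0.596 in sufficient inguinal nodes. The transcript length used matters for Aldh1a3, whose coding transcripts have a longest length of 3443 bases and a median of 1281.0: with the median length, Aldh1a3 led in deficient colonic nodes (48.4%, against 43.6% for Aldh1a1) and in both inguinal groups (47.5% deficient, 52.1% sufficient). By mean share, the lead of Aldh1a2 in the 4 sufficient gut-draining nodes held with either length. With the median length its colonic share there was 46.3%, against 35.4% for Aldh1a3. Those ranges overlapped, at 30.5% to 51.9% and 23.3% to 47.3%.

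**Figure D4:**
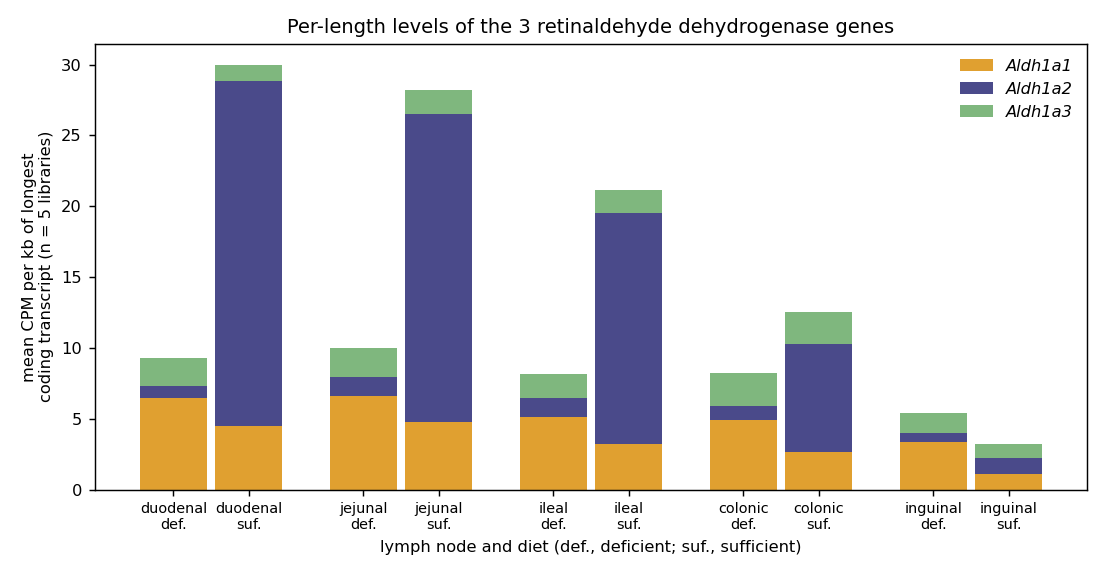
Mean CPM per kilobase of the longest coding transcript for the 3 retinaldehyde dehydrogenase genes, stacked, in each node, deficient bar left of sufficient bar (n = 5 libraries each). In duodenal nodes the Aldh1a2 part is 0.875 on the deficient diet and 24.3 on the sufficient diet, while the Aldh1a1 part is 6.46 and 4.52.

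The regional comparisons asked whether these genes distinguish nodes within a diet. Gut-draining against inguinal nodes, 1 of the 7 members was called higher on the deficient diet (3.71% of all genes were called higher) and 4 on the sufficient diet (9.69%). On the deficient diet this was Dhrs3, at 0.66 ± 0.14 (adjusted p = 0.000863), whose gut-draining means were 23.6, 31.8, 33.2 and 19.3 CPM, against 16.6 CPM in the inguinal node. On the sufficient diet Aldh1a1 was higher in gut-draining nodes by 1.71 ± 0.32 (adjusted p = 9.71e-05) and Aldh1a3 by 0.70 ± 0.20 (adjusted p = 0.013), besides Aldh1a2 and Dhrs3. The Aldh1a3 call was lost without the sufficient libraries numbered 1 (0.55, adjusted p = 0.106).

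Sufficient Aldh1a1 ran from 3.78 to 19.6 CPM over the gut-draining nodes, against 1.8 to 3.17 CPM in the inguinal node, with no overlap. On the deficient diet the same comparison gave 0.77 ± 0.27 for Aldh1a1 (adjusted p = 0.0924), 0.82 ± 0.32 for Aldh1a2 (adjusted p = 0.146) and 0.45 ± 0.19 for Aldh1a3 (adjusted p = 0.2). Only for Aldh1a2, among the 7, was the difference between diets in this contrast past the threshold, at -2.99 ± 0.45 (adjusted p = 8.51e-05; 0.522% of all genes were called in that direction). For Aldh1a1 it was -0.94 ± 0.40 (adjusted p = 0.347). The 5 lymphatic endothelial markers were called higher in gut-draining nodes on both diets, and summed to 604.7 CPM in deficient and 754.1 CPM in sufficient ileal nodes, against 179.1 CPM in deficient and 182.1 CPM in sufficient inguinal nodes; their part in these differences was not tested. On the sufficient diet 4 of 5 macrophage markers (median log2 fold change 0.73) and 3 of 5 adipocyte markers (median 1.58) were also higher in gut-draining nodes, and their part in the Aldh1a1 difference was not tested. The lymphatic markers were also higher in small intestinal than colonic nodes on the sufficient diet (5 of 5), where Dhrs3 and Aldh1a2 were called. On the deficient diet, where Dhrs3 was called as well, 0 of 5 lymphatic markers were (median log2 fold change 0.32). There 5 of 5 mast-cell, 4 of 5 migratory dendritic cell and 3 of 5 CD103 dendritic cell markers were called higher. The part of any of these cells in the calls was not tested.

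**Figure D5:**
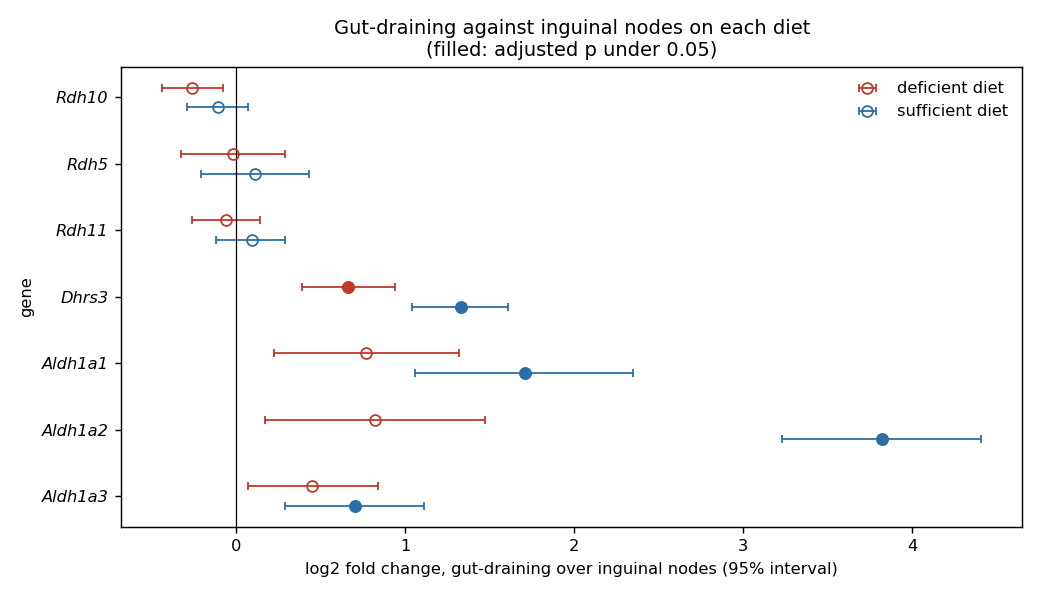
Log2 fold change, gut-draining over inguinal nodes, of the 7 tested genes on the deficient diet (red, upper) and the sufficient diet (blue, lower), with approximate 95% intervals; filled symbols passed an adjusted p of 0.05. For Aldh1a2 the 2 intervals are apart, at 0.17 to 1.47 on the deficient diet and 3.23 to 4.41 on the sufficient diet.

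Small intestinal against colonic nodes, 1 of the 7 was called higher on the deficient diet (1.27% of all genes) and 2 on the sufficient diet (2.65%). Dhrs3 was higher in small intestinal nodes on the deficient diet by 0.59 ± 0.14 (adjusted p = 0.0106), but without the low-Gm19220 libraries, which include 3 of the 5 deficient colonic ones, the value was 0.31 (adjusted p = 1). The call was also lost without the deficient libraries numbered 2 (0.58, adjusted p = 0.0767) or 5 (0.50, adjusted p = 0.0785). On the sufficient diet the calls were Aldh1a2 (1.43 ± 0.23, adjusted p = 6.42e-05) and Dhrs3 (0.63 ± 0.14, adjusted p = 0.00241). With females alone, at 2 sufficient libraries per node, the values were 1.47 and 0.55. Both calls were lost there (adjusted p = 0.176 and 0.347), and each held in 16 of 17 alternatives. Aldh1a3 leaned to the colonic node on the sufficient diet, at -0.62 ± 0.19, and missed the threshold (adjusted p = 0.0557). DESeq2 called it (-0.63, adjusted p = 0.0381). So did edgeR without the high-pancreas libraries (-0.68, adjusted p = 0.0372) or without the sufficient libraries numbered 5 (-0.74, adjusted p = 0.0329). Sufficient Aldh1a3 ran from 1.98 to 7.88 CPM over the small intestinal nodes, against 11.7, 7.23, 6.16, 8.52 and 4.81 CPM in the colonic node, so the libraries overlapped.

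Duodenal against ileal nodes, edgeR called 0 of the 7 on the deficient diet (5.60% of all genes), 2 at an unadjusted p under 0.05. DESeq2 called 1 there, Dhrs3, and limma-voom 0. On the sufficient diet 1 was called lower (5.03%): Dhrs3 had 37.2 to 54.9 CPM in duodenal nodes, against 51.4 to 70.3 CPM in ileal nodes, a difference of -0.54 ± 0.16 (adjusted p = 0.0265). The groups overlapped through duodenal library 5, and the call was lost without any 1 of the sufficient libraries numbered 1, 2, 3 or 4. Aldh1a2 was higher in sufficient duodenal than ileal nodes by 0.56 ± 0.26 (adjusted p = 0.198). The test of whether diet changed the duodenal to ileal difference called 0 of 7 with edgeR, DESeq2 and limma-voom (0.223% of all genes), 2 at an unadjusted p under 0.05, with Aldh1a2 at -1.16 ± 0.45 (adjusted p = 0.327).

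Other genes of the pathway set these values in context. Of 18 further retinol and retinal oxidoreductases listed, 13 were tested. Adh1, a cytosolic alcohol dehydrogenase that oxidises retinol, was higher on the deficient diet in the duodenal node by 0.82 ± 0.24 (adjusted p = 0.0197) and in the inguinal node by 1.10 ± 0.24 (adjusted p = 0.0112), and edgeR called no other of the 13 by diet in any node. DESeq2 called 1 further gene of the list lower in the duodenal node and 1 lower in the inguinal node. Of 3 hydroxylases that degrade retinoic acid, only Cyp26b1 was tested, and it was lower on the deficient diet, at -3.27 ± 0.46 in the duodenal node (adjusted p = 1.98e-06) and -4.33 ± 0.43 in the jejunal node (adjusted p = 1.1e-09).

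Of 17 genes of retinoid uptake, binding and storage, 13 were tested. Diet called 3 higher and 4 lower in the duodenal node, where 6.19% of all tested genes were called higher and 3.95% lower. It called 4 lower in each of the jejunal, ileal and colonic nodes, where the shares of all genes called lower were 1.80%, 2.96% and 0.946%. In the colonic node limma-voom called 3 lower and DESeq2 5. Lrat, which esterifies retinol for storage, was among those lower in each of the 4, at -3.16 ± 0.30 on the log2 scale in the ileal node (adjusted p = 4.65e-10). Of the 6 retinoic acid receptor genes, all were tested, and Rara was higher on the deficient diet in the 4 gut-draining nodes, by 0.68 ± 0.10 in the duodenal node (adjusted p = 2.27e-06). Of 14 genes known to respond to retinoic acid, 11 were tested, with 2 higher and 3 lower in the duodenal node, against the same shares of 6.19% and 3.95% of all genes. There Asb2 fell by 1.36 ± 0.13 (adjusted p = 1.15e-10) and Gpr15 rose by 1.94 ± 0.18 (adjusted p = 2.34e-10).

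Across the 50 libraries the members varied differently from one another. Pearson's r of log2(CPM + 0.5) was 0.82 between Aldh1a2 and Dhrs3, 0.44 between Aldh1a1 and Aldh1a3 and 0.0 between Aldh1a1 and Aldh1a2. The 50 points share diets, nodes and libraries, so these values are descriptions. The genes most like Aldh1a2 were Fndc5 and Hic1 (both 0.92) and Gm57204 (0.91). Those most like Dhrs3 were Rab20 (0.95), Laptm4b and Igfbp4 (both 0.93). Those most like Aldh1a1 were Cd163 (0.79), a scavenger receptor of macrophages, Gnai1 (0.74) and Matn2 (0.72). The macrophage marker list, which holds Cd163, summed to 321.4 CPM (247.9 to 431.3) in deficient inguinal nodes, against 269.5 CPM (233.8 to 299.5) in sufficient ones, with 0 of 5 called by edgeR. The 5 adipocyte markers summed to 521.6 CPM (83.7 to 1191.6) in deficient inguinal nodes, against 275.0 CPM (42.7 to 790.8) in sufficient ones, with a median log2 fold change of 1.44 and 0 of 5 called by edgeR. The part of either in the Aldh1a1 difference was not tested. The other members had lower values. Those most like Aldh1a3 were Tnxb (0.65), Lrrn4 (0.64) and Pi16 (0.63), of which Lrrn4 is also in the mesothelial list and Pi16 in the fibroblast list. Those most like Rdh11 were Api5 (0.64), Myo19 (0.54) and Abce1 (0.52). Rdh10 was most like Fnbp1l (0.6), Ice1 (0.58) and Fam3d (0.57), and Rdh5 most like Naxd (0.51), Hirip3 and Lrrc28 (both 0.46).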

How the data were processed

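Poly(A) RNA of 50 mouse lymph nodes was sequenced. The values were estimated counts per gene that the authors deposited in 1 table; of tools, the submitters' processing notes list kallisto, edgeR and limma, and of builds mm10 and GRCm39, without saying what each was used for. Of the nonzero estimated counts, 0.122% were whole to within 1e-06. The word 3rd in the column names of deficient libraries is not explained.

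Estimated counts were rounded, and 379 of the 56600 entries had no gene name. With R 4.3.3 and edgeR 4.0.16, genes were filtered by filterByExpr on the design, scaled by TMM and fitted by quasi-likelihood over all 50 libraries with a mean for each of the 10 groups and a sex term; since every deficient mouse is female, that term rests on the sufficient libraries. P-values were adjusted by Benjamini-Hochberg over 18387 genes, with a threshold of 0.05. CPM are TMM-normalised counts per 1000000. A regional comparison sets the unweighted means of nodes against each other. SE and 95% intervals are approximate, from the F statistic. The sequencing depth of 5335369 to 8904722 estimated counts limits low genes such as Dhrs9. The fitting was tested on simulated data.

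The members and all gene lists were chosen with earlier results of these data known. Genes named besides the members are, per member, the 3 with the highest r over the libraries, and per list and comparison up to 2 called genes of smallest adjusted p. Alternatives were other scaling, filters and tools (limma 3.58.1, DESeq2 1.42.0), no sex term, females alone, the compared groups alone, a replicate block, libraries that stood apart, and leaving out each replicate number of a diet. Promoters are from RefSeq (GRCm38.p6) and gene positions and lengths from the GENCODE annotation of GRCm38; the table gives no coordinates. Python 3.11.15 and matplotlib 3.10.9 made the figures. Groups and replicates follow the labels, and no sample was left out. The text gives a selection of the pathway genes that rule allows, and 1 gene is not reported here.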

Additional observations from a re-analysis of the deposited data

Results flagged for a closer look

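In groups of 5, a value was singled out when its gap to the nearest other library was a large part of the group's range. Of 70 groups checked, 4 had such a value, and chance gives about 1 in 20. Aldh1a3 was lowest in deficient inguinal library 1, at 3.4 CPM against 5.18 to 5.6 CPM in the other 4. The same library was lowest for Rdh10, at 15.6 CPM against 22.1 to 23.1 CPM. Rdh10 was highest in deficient ileal library 5, at 19.3 CPM against 15.8 CPM or less. Dhrs3 was highest in sufficient duodenal library 5, at 54.9 CPM against 37.2 to 42.0 CPM; that library is 1 of the 3 with a high pancreas share.

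The diet effect on Aldh1a2 differed between gut-draining and inguinal nodes by -2.99 on the log2 scale (edgeR interaction term, adjusted p = 8.51e-05). Every deficient library lay below every sufficient one in the 4 gut-draining nodes and not in the inguinal node.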

How the results depend on the processing

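The 13 counts of members called were recomputed under up to 23 other settings, giving 256 values, of which 208 were within 1.5 times the reported count. No fold change whose call was made reversed. With females alone the diet counts were 1 in the duodenal, ileal and jejunal nodes and 0 in the inguinal node, and the counts were 0 for duodenal against ileal and for small intestinal against colonic nodes on the sufficient diet; with only the groups compared they were 1, 1, 1 and 0 by diet and 0 for small intestinal against colonic nodes on the deficient diet. Without the sex term the colonic diet count was 2 and the sufficient duodenal against ileal count 0. DESeq2 gave 2 in the colonic diet comparison, 2 in the interaction of gut-draining against inguinal nodes and 1 in deficient duodenal against ileal nodes. It gave 3 in sufficient small intestinal against colonic nodes. With limma-voom the inguinal diet count was 0. Without the low-Gm19220 libraries the inguinal diet and the deficient small intestinal against colonic counts were 0; with a term for them the inguinal count was 0 and the deficient duodenal against ileal count 1. Without the high-pancreas libraries the duodenal diet count was 1 and the deficient duodenal against ileal count 1. The cause of these changes was not tested. The shares of all genes called under the other settings are not given here. A change particular to the members therefore cannot be told from a general change in calls. Same-numbered libraries deviated together (r over 0.1) in 38 of 50 deficient and 39 of 50 sufficient pairs. Of pairs with different numbers, 47 of 200 deficient and 50 of 200 sufficient ones did so. On average, 36 of 50 libraries correlated best with their own number. The labels do not tie numbers to mice, though the sex label followed the number in every sufficient node. With a block for the replicate number, shared by both diets, the inguinal diet count was 0. Between diets, same-numbered libraries had a median r of 0.008, against 0.003 for other numbers, so this block is no pairing of mice. With a block for the number within each diet, the gut-draining against inguinal counts were 3 (deficient) and 2 (interaction). The deficient duodenal against ileal count was then 1. Leaving out 1 replicate number at a time gave 1 to 3 (diet, duodenal), 1 to 2 (jejunal, ileal, colonic), 0 to 1 (inguinal), 1 to 2 (gut-draining against inguinal, deficient), 3 to 4 (sufficient), 0 to 1 (small intestinal against colonic, deficient), 2 to 3 (sufficient), 0 to 1 (duodenal against ileal, deficient and sufficient), 1 to 2 and 0 to 0 for the interactions with gut-draining and duodenal position. Diet is confounded with litter and, in males, with the sufficient group, and the whole-node libraries do not resolve cell types.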

Other observations

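The log2 ratio of Rdh10 (retinaldehyde synthesis) to Dhrs3 (its reduction), from CPM within each library, was computed for every group. It is not per length, so only its differences between groups can be read. It is not adjusted for sex either, so these differences include any between the sexes. All deficient libraries were female, and 3 of the 5 sufficient ones in each node were male. In the edgeR sex term, males over females, Dhrs3 was at 0.31 (adjusted p = 0.0249) and Rdh10 at -0.12 (adjusted p = 0.249). The ratio averaged -0.26 ± 0.29 in deficient and -1.03 ± 0.55 in sufficient duodenal nodes (SD, n = 5), and -1.02 ± 0.38 in deficient and -1.81 ± 0.15 in sufficient ileal nodes. In the inguinal node it was 0.35 ± 0.21 on the deficient diet and 0.15 ± 0.44 on the sufficient diet. The ileal groups did not overlap (-1.52 to -0.54 deficient, -1.98 to -1.67 sufficient), and the inguinal groups did. In the jejunal node the ratio averaged -0.77 ± 0.29 deficient and -1.53 ± 0.39 sufficient. In the colonic node it averaged -0.17 ± 0.41 and -0.85 ± 0.44. Both nodes had overlap, with -1.07 to -0.37 against -1.93 to -1.06 in the jejunal node. The colonic ranges were -0.48 to 0.52 deficient and -1.51 to -0.42 sufficient.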
